A study of Homo sapiens with 9 samples.

Results

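The 76 genes described here encode the proteins of the mitochondrial ribosome that carry the symbols MRPL or MRPS and a number. They were chosen by symbol from the protein-coding genes of the count table, with 1 RefSeq transcript standing for each gene and at least 15 counts in total, out of 21721 genes with counts. Of 77 matching symbols only MRPS18B was dropped. It was listed at 0 in all 9 libraries. All 76 members passed the filter on low counts. 51 belong to the large subunit and 25 to the small subunit, and MRPS18A and MRPS30 are counted with the large subunit, where their proteins sit despite their names.

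The cells were Caco-2, a line derived from a human colon adenocarcinoma. They grew in medium whose serum had been depleted of lipids, all had 10 µM lovastatin for 48 h, and their poly(A) RNA was sequenced. Lovastatin is a statin, an inhibitor of the rate-limiting enzyme of cholesterol synthesis. 3 libraries came from cells that also had 10 µM SGA360, 3 from cells that also had 10 µM SGA315, and 3 from cells with lovastatin alone. SGA360 and SGA315 bind the aryl hydrocarbon receptor (AHR), a transcription factor that small molecules activate, and their dose and time were matched. Every comparison is therefore between lovastatin-treated cells, and both ligands were set against the same 3 libraries. Each library held 12334083 to 16870148 counts, taking 1 transcript per gene. Nothing in the labels says whether replicate libraries stem from separate cultures, and p-values then measure only the spread between these samples, which may be technical. The spread was small: the biological coefficient of variation over all genes was 2.16%, and 9 of 9 libraries were closest to a library of their own group. Of 7 markers of intestinal epithelium and Caco-2, 6 lay above 10 CPM, the count scaled to a common library size, and KRT20 was near 0. Their summed level was 5310 to 5700 CPM with SGA360, 3810 to 3920 CPM with SGA315 and 6670 to 6730 CPM with lovastatin alone. KRT8 and KRT18 made up most of each sum. Among the 6, 5 fell with each ligand. CDX2 went the other way, with 81.7 to 82.8, 120 to 122 and 71.0 to 72.4 CPM in that order of groups. All marker levels given here are scaled to library totals only. The tests below use TMM scaling, which centres most genes on no change. On that scaling the highest log2 fold change among the 6 was 0.08 with SGA360, where 0 were called higher. With SGA315 it was 0.63, and 1 was called higher. The 7 markers of other cell types summed to 30.1 to 34.1, 23.2 to 24.6 and 42.8 to 44.7 CPM in the same order of groups, nearly all of it COL1A1, while CD3E, COL1A2 and CHGA were at or near 0. The part of these shifts in the results below was not tested. In bulk RNA, fewer cells of a kind and less RNA per cell cannot be told apart.

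Mitochondria translate the few proteins that their own DNA encodes, all of them subunits of the oxidative phosphorylation complexes, on a ribosome of their own. Its ribosomal RNAs are transcribed inside the mitochondrion, whereas all of its proteins are made from nuclear genes, translated in the cytosol and imported. Some of these proteins descend from bacterial ribosomal proteins, and others are found only in mitochondria, where they take up positions around a shortened ribosomal RNA. Inherited defects of several of these proteins lower oxidative phosphorylation in patients.

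None of the motifs searched was found in all members, and 4 promoters show the range among them. They are given because members that moved most in opposite directions differ in their motifs, and because 1 motif occurs in promoters of members that moved both ways. Each sequence is from RefSeq GRCh38.p14, runs 5′ to 3′ on the strand of the gene from 250 bases before to 50 bases after its start, and has matches to CCGGAAGT (bound by ETS factors such as GABPA) or AAGATGGCG (bound by YY1) in capitals. MRPL27 (chr17:50373135-50373434, minus strand) had the largest fall with SGA360, and MRPL28 (chr16:370489-370788, minus strand) the largest fall with SGA315. MRPS10 (chr6:42217812-42218111, minus strand) had the largest rise with SGA360. MRPL50 (chr9:101398569-101398868, minus strand) was picked after its values were seen, as a member that fell and carries the same motif as MRPS10.
MRPL27: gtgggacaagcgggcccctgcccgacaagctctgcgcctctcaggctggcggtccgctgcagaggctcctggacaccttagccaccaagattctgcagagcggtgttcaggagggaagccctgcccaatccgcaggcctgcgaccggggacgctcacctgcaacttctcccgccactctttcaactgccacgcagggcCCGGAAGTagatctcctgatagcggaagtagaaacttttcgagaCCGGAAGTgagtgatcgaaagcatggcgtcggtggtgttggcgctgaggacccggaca
MRPL28: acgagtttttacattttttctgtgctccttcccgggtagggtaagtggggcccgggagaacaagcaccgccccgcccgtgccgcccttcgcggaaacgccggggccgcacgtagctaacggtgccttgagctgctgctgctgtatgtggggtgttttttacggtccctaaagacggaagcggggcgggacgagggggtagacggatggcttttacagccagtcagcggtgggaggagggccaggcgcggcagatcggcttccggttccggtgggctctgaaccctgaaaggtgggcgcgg
MRPS10: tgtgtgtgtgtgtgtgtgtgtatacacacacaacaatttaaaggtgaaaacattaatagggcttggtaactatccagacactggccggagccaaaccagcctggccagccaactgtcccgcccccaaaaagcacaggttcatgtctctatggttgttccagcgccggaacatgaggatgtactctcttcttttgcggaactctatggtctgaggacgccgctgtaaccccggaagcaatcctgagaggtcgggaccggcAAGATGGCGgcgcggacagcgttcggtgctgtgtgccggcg
MRPL50: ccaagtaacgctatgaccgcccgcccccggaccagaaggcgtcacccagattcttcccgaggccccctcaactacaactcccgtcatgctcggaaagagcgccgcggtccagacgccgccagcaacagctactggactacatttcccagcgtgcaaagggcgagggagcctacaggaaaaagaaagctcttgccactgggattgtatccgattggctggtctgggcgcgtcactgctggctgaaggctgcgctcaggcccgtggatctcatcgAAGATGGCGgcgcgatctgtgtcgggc

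MRPL27 held 2 ETS motifs, whose first bases lay 52 and 8 bases before the start, MRPS10 and MRPL50 held the YY1 motif at bases 10 and 24 after it, and MRPL28 held none of the motifs searched. RefSeq promoters were matched for 68 of the 76 members. AAGATGGCG, searched on both strands as were all motifs, was found in 12 of the 68 (17.6%), against 3.77% of the 11469 promoters of tested genes and 1.85% of all 27305 promoters of this length. In 10 of the 12 it began within 50 bases of the start, and in 9 it lay downstream of it. CCGGAAGT was found in 11 members (16.2%), against 8.39% of tested and 4.44% of all promoters. GCGCATGCG, bound by NRF1, was found in 3 members (4.41%), against 3.72% of tested and 2.1% of all promoters. The E box CACGTG was found in 6 members (8.82%), against 9.97% and 7.43%. Matches of different motifs did not overlap in any member. A match is a description of these letters and shows neither binding nor a cause of any change.

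The 76 members were expressed over a 27.0-fold range when compared per length. The level per kilobase of the counted transcript, averaged over the 9 libraries, had a median of 36.8 CPM per kilobase, 36.3 among large and 41.9 among small subunit genes. The highest were MRPL11, at the base of the stalk that receives elongation factors, with 130 CPM per kilobase, MRPS27, a small subunit protein with pentatricopeptide repeats, with 128, and MRPL21, a homologue of bacterial L21, with 106. MRPL35, MRPS21 and MRPS17 were lowest, with 4.82, 6.04 and 7.75 CPM per kilobase. The members thus differed from each other far more than between groups of cells. Replicates were close: the median coefficient of variation of a member's CPM over 3 libraries was 3.05% with SGA360, 3.94% with SGA315 and 3.09% with lovastatin alone. The largest were 11.1% for MRPL23 with SGA360, 14.6% for MRPS17 with SGA315 and 18.5% for MRPS11 with lovastatin alone.

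The summed level of the members was lower with either ligand than with lovastatin alone. All 76 members together held 4250, 4257 and 4192 CPM in the SGA360 libraries, 4131, 4163 and 4128 CPM in the SGA315 libraries, and 4688, 4690 and 4705 CPM in the libraries with lovastatin alone. The groups did not overlap, and the 6 libraries with a ligand all lay below the 3 without. The means were 4233 ± 35.6, 4140 ± 19.3 and 4695 ± 9.25 CPM (SD, n = 3 each). Relative to lovastatin alone the mean changed by −9.83% with SGA360 and by −11.8% with SGA315, and SGA360 was 2.24% above SGA315. For the large subunit the change was −10.2% with SGA360 and −13.1% with SGA315, and for the small subunit −9.13% and −9.51%. These sums are on TMM scaling, which centres most genes on no change. Scaled to library totals only, the changes for all members were −2.36% with SGA360 and −4.09% with SGA315. They are a description, with no test.

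**Figure D1:**
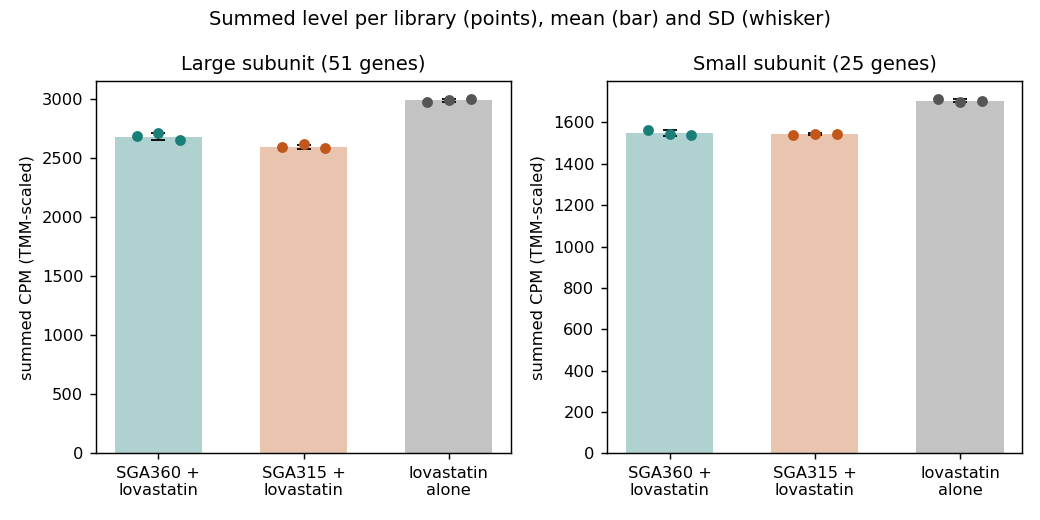
Summed TMM-scaled CPM of the 51 large (left) and 25 small subunit genes (right) in each library. Bars are means, whiskers SD over 3 libraries and points single libraries, all treated with lovastatin. With either ligand the large subunit sums lie between 2583 and 2712 CPM, below the 2975 to 3003 CPM of lovastatin alone.

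Setting SGA360 against lovastatin alone addressed how this ligand changed the members in statin-treated cells. 54 of 76 members (71.1%) passed the test at an adjusted p under 0.05 (edgeR quasi-likelihood, Benjamini-Hochberg over 14678 genes), against 62.7% of all genes tested. 44 fell and 10 rose, where 31.4% of all genes fell and 31.4% rose. The median log2 fold change of the members was −0.17 (quartiles −0.32 and −0.02, range −0.64 to 0.36), beside 0.02 over all genes. The changes were small, with a median size of 0.18 on the log2 scale against 0.25 for all genes. 19 members fell and 1 rose by 0.32 or more on the log2 scale, and the largest change was 1.55-fold. Of all genes, 34.1% passed the test with a change of 0.32 or more in either direction. Between the 2 groups, CPM ranges were separate for 60 members (78.9%), against 66.3% of all genes. With scaling to totals only, 27 members fell and 17 rose, where 21.4% of all genes fell and 44.0% rose. The members' median lay 0.19 below that of all genes. A change of scaling shifts all genes alike, so it cannot alter this gap.

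**Figure D2:**
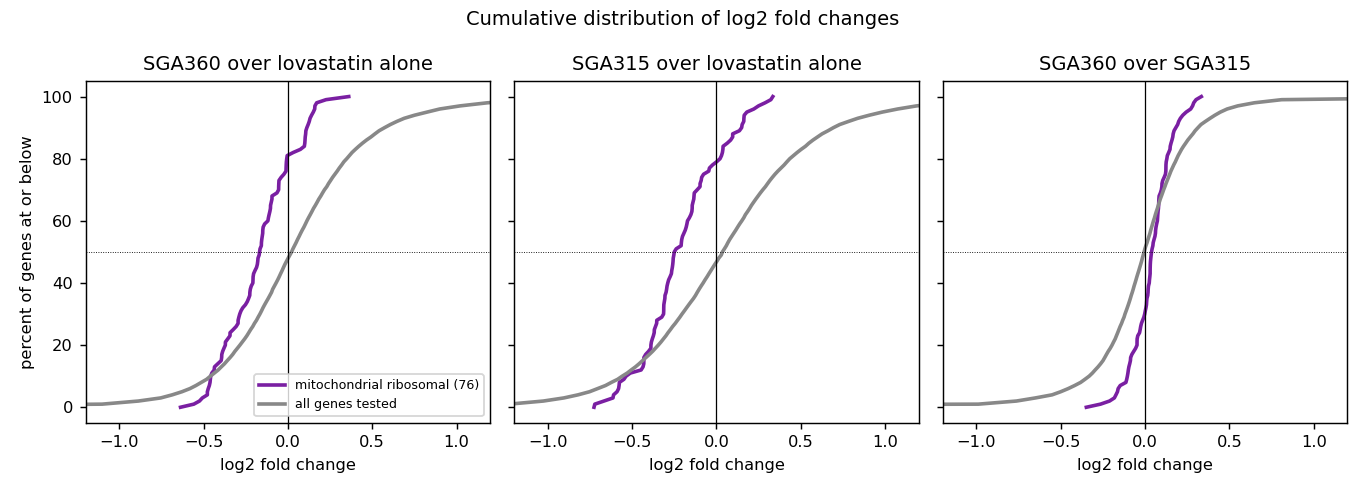
Cumulative distribution of log2 fold changes of the 76 members and of all 14678 genes tested, for each comparison. The horizontal axis is cut at 1.2 in either direction. The members' curve lies left of that of all genes over most of its length in the first 2 panels, with medians of −0.17 and −0.25 against 0.02 and 0.04, and spans a narrower range in all 3 panels.

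MRPL27, a homologue of bacterial L27, which lies near the peptidyl transferase centre, showed the largest fall with SGA360. It had 46.9, 47.0 and 45.6 CPM with SGA360, against 69.4, 73.3 and 74.7 CPM with lovastatin alone. All 3 SGA360 libraries lay far below the lowest library without ligand, a log2 fold change of −0.64 ± 0.046 (SE, n = 3 each; Benjamini-Hochberg adjusted p = 6.5e-20 in the edgeR quasi-likelihood test). MRPL23, at the rim of the exit tunnel, through which the new chain leaves, had 27.6, 30.5 and 24.4 CPM with SGA360, against 39.3, 39.2 and 41.7 CPM with lovastatin alone. Its groups did not overlap although the SGA360 libraries were spread, and it fell by 0.53 ± 0.061. MRPS7, a protein of the head of the small subunit, had 62.1, 64.6 and 60.4 CPM with SGA360, against 91.9, 89.5 and 86.9 CPM with lovastatin alone. It too was low in each SGA360 library, and fell by 0.52 ± 0.041. 10.4% of the exon bases of MRPS7 overlap MIF4GD on the other strand, whose reads cannot be told apart where counting ignores strand. MRPL16, a homologue of bacterial L16, and MRPS26, found only in mitochondrial small subunits, fell by 0.48 ± 0.059 and by 0.48 ± 0.040.

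MRPS10, a homologue of bacterial S10 in the head of the small subunit, rose most with SGA360. Its level was 51.3, 50.4 and 48.3 CPM with SGA360, against 36.8, 39.7 and 40.6 CPM with lovastatin alone. The lowest SGA360 library lay above the highest without ligand, a log2 fold change of 0.36 ± 0.051 (SE, n = 3 each; Benjamini-Hochberg adjusted p = 6.51e-09 in the edgeR quasi-likelihood test). The next rises were much smaller. MRPL58, a peptidyl-tRNA hydrolase built into the large subunit, rose by 0.18 ± 0.056, a call that ended without SGA360 replicate 2 (0.12, adjusted p = 0.0893). MRPS30 rose by 0.16 ± 0.045 and MRPL19, a homologue of a bacterial protein at the subunit interface, by 0.15 ± 0.039. MRPL1, the protein of the L1 stalk, rose by 0.16 ± 0.063. That call ended without SGA360 replicate 1 (0.13, adjusted p = 0.12), SGA360 replicate 2 (0.14, 0.0923) or lovastatin replicate 2 (0.06, 0.421), and with DESeq2 (0.15, 0.107). The count of members that rose was 6 rather than 10 without SGA360 replicate 1, and also 6 without SGA360 replicate 2.

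For 22 members no change passed the test with SGA360. The smallest differences were −0.00 ± 0.065 for MRPL40, −0.01 ± 0.071 for MRPS33 and −0.01 ± 0.039 for MRPL45, an exit tunnel protein that faces the inner membrane. Across the 22, the 95% intervals reached from −0.35 for MRPS21 to 0.22 for MRPL55, and for each member a change inside its own interval is not excluded.

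SGA315 was set against the same libraries with lovastatin alone. 62 of 76 members (81.6%) passed the test, against 69.2% of all genes. 51 fell and 11 rose, where 33.2% of all genes fell and 36% rose. Their median log2 fold change was −0.25 (quartiles −0.37 and −0.08, range −0.73 to 0.33), beside 0.04 over all genes. 22 members fell and 1 rose by 0.32 or more on the log2 scale, and the largest change was 1.65-fold. Of all genes, 44.1% passed the test with a change of 0.32 or more in either direction. Ranges were separate for 63 members (82.9%), against 70.3% of all genes. With scaling to totals only, 37 members fell and 17 rose, where 24.7% of all genes fell and 47.2% rose. The members' median lay 0.29 below that of all genes, a gap that scaling cannot alter.

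MRPL28 and MRPL12 fell most with SGA315. MRPL28, a homologue of bacterial L28, had 31.9, 31.8 and 31.4 CPM with SGA315, against 54.2, 50.9 and 52.1 CPM with lovastatin alone. The SGA315 libraries were nearly equal and all far below, a log2 fold change of −0.73 ± 0.052 (SE, n = 3 each; Benjamini-Hochberg adjusted p = 6.12e-20 in the edgeR quasi-likelihood test). MRPL12, the stalk protein that recruits elongation factors and has also been reported to bind the mitochondrial RNA polymerase, had 62.1, 64.7 and 57.7 CPM with SGA315, against 97.2, 105 and 102 CPM with lovastatin alone. It fell by 0.72 ± 0.042 (adjusted p = 1.8e-24), again with no overlap. MRPL23 fell by 0.61 ± 0.063 and MRPS26 by 0.61 ± 0.042. MRPS12, a homologue of S12 at the decoding centre, had 38.2, 36.1 and 34.4 CPM with SGA315, against 54.0, 53.3 and 55.7 CPM with lovastatin alone. Each SGA315 library lay well below each without ligand, and MRPS12 fell by 0.58 ± 0.051.

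MRPS31, a small subunit protein found only in mitochondria, had 42.6, 41.7 and 44.1 CPM with SGA315, against 32.8, 34.6 and 35.5 CPM with lovastatin alone. The groups did not overlap, and it rose by 0.32 ± 0.054 (SE, n = 3 each; Benjamini-Hochberg adjusted p = 3.88e-07 in the edgeR quasi-likelihood test). MRPS18C, a small subunit member of the S18 family, had the largest fitted rise, 0.33 ± 0.053. 78.9% of its exon bases overlap ABRAXAS1 on the other strand, so its value is uncertain. MRPL10, which anchors the stalk and its MRPL12 copies, had 180, 178 and 183 CPM with SGA315, against 152, 151 and 159 CPM with lovastatin alone. It rose by 0.22 ± 0.032 while its partner MRPL12 fell. The entry counted for MRPL10, 1 of 3, is a non-coding RefSeq transcript of the gene, and the other entries were not tested. MRPL1 rose by 0.26 ± 0.063, and MRPS33 by 0.17 ± 0.070. The MRPS33 call ended without SGA315 replicate 1 (0.12, adjusted p = 0.17), lovastatin replicate 1 (0.11, 0.21) or lovastatin replicate 2 (0.15, 0.0931), and with RLE scaling (0.15, 0.0593), DESeq2 (0.15, 0.154) or no filter (0.15, 0.0766). 7 members rather than 11 rose without SGA315 replicate 1, and 6 without lovastatin replicate 1. The 14 members that did not pass had 95% intervals from −0.35 for MRPS21 to 0.15 for MRPS9. The smallest differences were −0.01 ± 0.040 for MRPS5, 0.02 ± 0.057 for MRPL46 and 0.03 ± 0.031 for MRPS35.

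**Figure D3:**
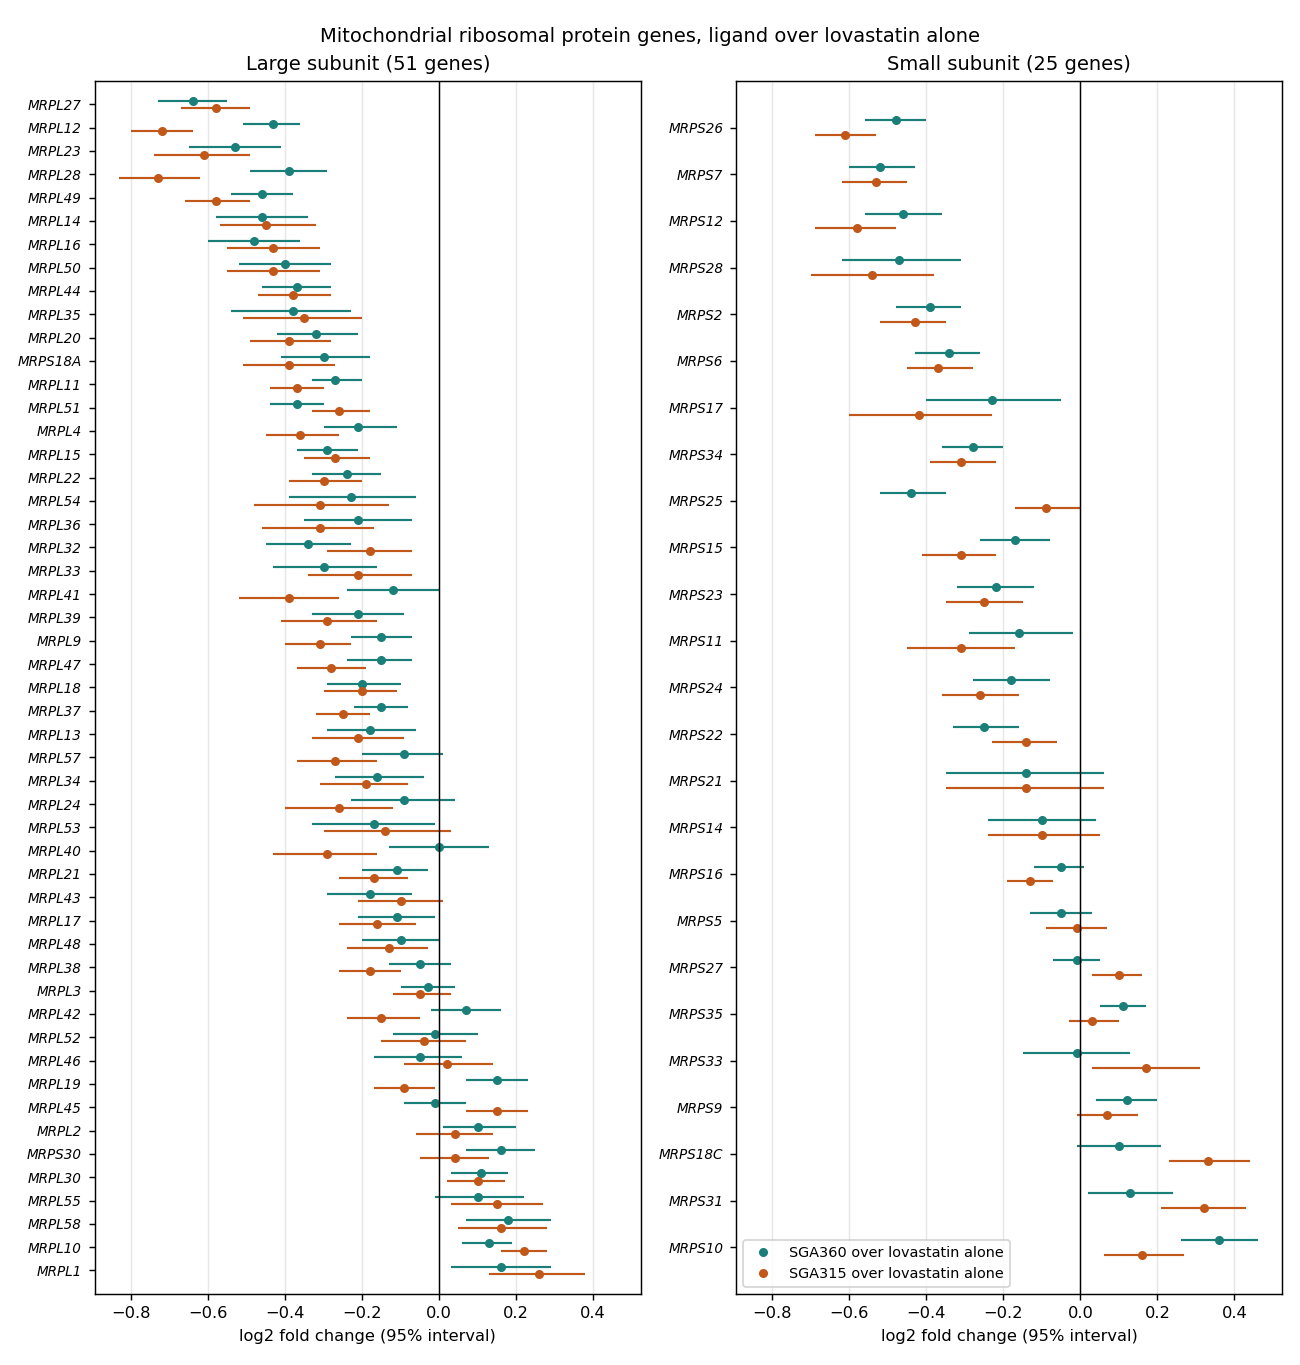
log2 fold change of each member with SGA360 or SGA315 over lovastatin alone, with 95% intervals from the fit, ordered by the sum of both values. Both comparisons share the 3 libraries with lovastatin alone, so the 2 points of a gene are not independent. Most points lie left of 0, down to −0.73 for MRPL28, and few lie right of it, up to 0.36 for MRPS10.

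**Figure D4:**
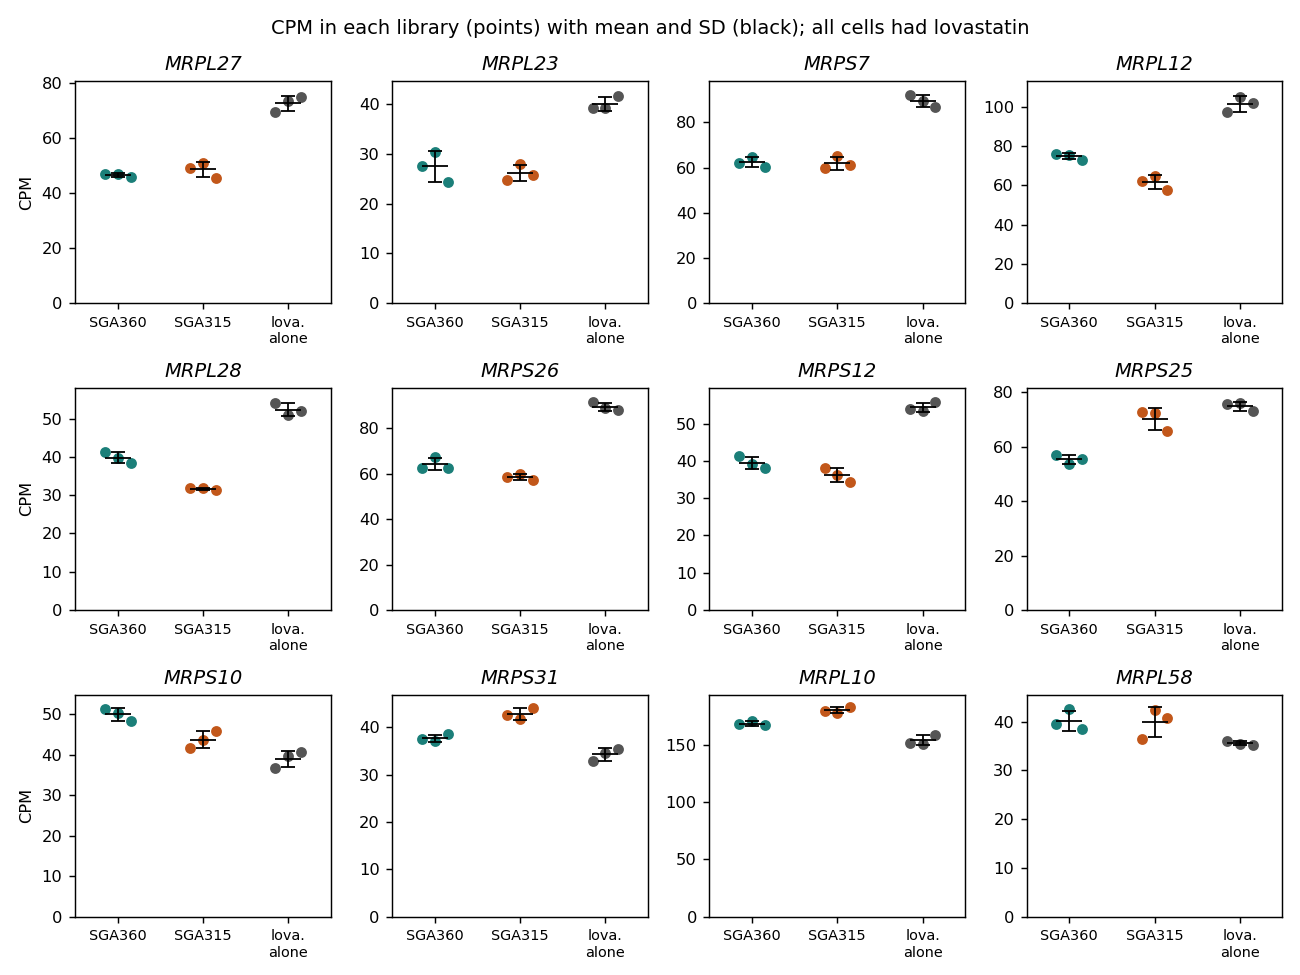
CPM of 12 members in each library, with mean and SD over 3 libraries in black and axes from 0. MRPL27, MRPL23 and MRPS7 are low with both ligands, MRPL12 and MRPL28 are lowest with SGA315, MRPS25 is low with SGA360, and MRPS10, MRPS31 and MRPL10 are higher with a ligand than with lovastatin alone.

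Set out by role, the share of members that fell ranged widely, beside 31.4% of all genes with SGA360 and 33.2% with SGA315. Among 30 large subunit homologues of bacterial proteins, 21 (70.0%) fell and 4 rose with SGA360 (median log2 fold change −0.20), and 23 (76.7%) fell and 4 rose with SGA315 (−0.26). Among 21 large subunit proteins found only in mitochondria, 9 (42.9%) fell and 2 rose with SGA360 (−0.12), and 14 (66.7%) fell and 2 rose with SGA315 (−0.25). The 16 small subunit homologues had 9 falls (56.2%) and 2 rises with SGA360 (−0.16), and 10 (62.5%) and 2 with SGA315 (−0.29). Of 9 mitochondrion-specific small subunit genes, 5 (55.6%) fell and 2 rose with SGA360 (−0.22). With SGA315, 4 of these 9 (44.4%) fell and 3 (33.3%) rose (−0.09), near the 33.2% and 36% of all genes.

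Among 8 proteins around the exit tunnel, 5 fell and none rose with SGA360, and 7 fell and 1, MRPL45, rose with SGA315. Of 5 genes of the stalk, 3 fell with each ligand and MRPL10 rose. The 8 genes of the central protuberance, at the top of the large subunit, had 2 falls (25%, below the 31.4% of all genes) and 1 rise with SGA360 (median −0.05), and 5 falls (62.5%) and 2 rises with SGA315. Scaling to totals only lowered the counts of falls by role. Of all genes, 21.4% fell and 44.0% rose with SGA360 on that scaling (median 0.14), and 24.7% fell and 47.2% rose with SGA315 (0.16). With SGA360, 13 of the 30 large subunit homologues then fell (−0.09), 5 of the 21 mitochondrion-specific large subunit genes fell and 4 rose (−0.00), and 5 of the 16 small subunit homologues fell (−0.05). With SGA315, 15 of the 30 large subunit homologues fell (−0.14), and 3 of the 9 mitochondrion-specific small subunit genes fell and 4 rose (0.03). The exit tunnel had 3 falls with SGA360 and 5 with SGA315, the stalk 2 with each, and the central protuberance 1 fall and 2 rises with SGA360 (0.06) and 2 falls and 3 rises with SGA315. The differences between roles were not tested.

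MRPL44, MRPS34, MRPS22 and the S18 family were followed by name. MRPL44, a large subunit protein at the exit tunnel, had 46.4, 48.2 and 49.7 CPM with SGA360, 46.9, 46.4 and 50.3 CPM with SGA315, and 64.1, 62.3 and 59.9 CPM with lovastatin alone. It was about equally low with both ligands, falling by 0.37 ± 0.046 with SGA360 and by 0.38 ± 0.047 with SGA315. MRPS34 fell by 0.28 ± 0.041 with SGA360 and by 0.31 ± 0.042 with SGA315. MRPS22 fell by 0.25 ± 0.043 with SGA360 and by 0.14 ± 0.044 with SGA315, where the second became −0.02 (adjusted p = 0.654) with scaling to totals only. Of the S18 family, MRPS18A fell by 0.30 ± 0.057 with SGA360 and by 0.39 ± 0.058 with SGA315. 56.9% of its exon bases overlap RSPH9, which had 22 counts in all libraries together.

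SGA360 and SGA315, the only pair of ligands, were compared directly at the matched dose and time. 29 of 76 members (38.2%) differed, against 42.7% of all genes. 20 were higher and 9 lower with SGA360, where 21.8% of all genes were higher and 20.9% lower. The median log2 fold change was 0.04 (range −0.35 to 0.33), beside −0.01 over all genes. Ranges were separate for 31 members (40.8%), against 49.1% of all genes. Of 51 large subunit genes 15 were higher and 4 lower with SGA360, and of 25 small subunit genes 5 were higher and 5 lower. 15 of the 29 calls held without each library in turn. The other 14 were small, between 0.07 and 0.17 in size on the log2 scale, and in the fits that ended them the value kept its sign and was 0.05 to 0.17 in size.

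MRPL28 had 41.4, 39.7 and 38.4 CPM with SGA360, against 31.9, 31.8 and 31.4 CPM with SGA315. It was higher with SGA360 in each library, by 0.33 ± 0.055 (SE, n = 3 each; Benjamini-Hochberg adjusted p = 6.08e-07 in the edgeR quasi-likelihood test), and both ligands lay below lovastatin alone. MRPL12 had 76.1, 75.6 and 73.0 CPM with SGA360, against 62.1, 64.7 and 57.7 CPM with SGA315, and was higher with SGA360 by 0.29 ± 0.044. MRPL40, of the central protuberance, had 23.9, 24.0 and 23.1 CPM with SGA360, against 18.9, 19.3 and 19.9 CPM with SGA315. Its SGA360 libraries lay at the level of lovastatin alone, which was 24.3, 23.1 and 23.7 CPM, and the ligands differed by 0.29 ± 0.068. MRPL41 and MRPL19 were higher with SGA360 by 0.27 ± 0.066 and by 0.23 ± 0.040.

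MRPS25, a small subunit protein found only in mitochondria, differed most in the other direction. It had 56.9, 53.6 and 55.6 CPM with SGA360, against 72.9, 72.3 and 65.6 CPM with SGA315. The SGA315 libraries lay just under the 75.8, 76 and 73.0 CPM of lovastatin alone, while those of SGA360 lay far below, and the log2 fold change between the ligands was −0.35 ± 0.045 (SE, n = 3 each; Benjamini-Hochberg adjusted p = 1.16e-09 in the edgeR quasi-likelihood test). 16.5% of its exon bases overlap NR2C2. MRPS18C was lower with SGA360 by 0.24 ± 0.052 and MRPS31 by 0.19 ± 0.052. MRPS33 and MRPL32, a homologue of L32 that is matured by a mitochondrial protease, were lower by 0.17 ± 0.070 and by 0.16 ± 0.058. The MRPL32 call ended without SGA315 replicate 2 (−0.08, adjusted p = 0.302) and with DESeq2 (−0.15, 0.103). The MRPS33 call ended without SGA360 replicate 1 (−0.12, 0.242), SGA360 replicate 3 (−0.17, 0.0657), SGA315 replicate 1 (−0.15, 0.148) or SGA315 replicate 3 (−0.17, 0.0609), and with RLE scaling (−0.16, 0.051), DESeq2 (−0.16, 0.165) or no filter (−0.17, 0.0588). The difference was −0.00 ± 0.11 for MRPS21, −0.00 ± 0.073 for MRPS14 and 0.00 ± 0.049 for MRPL44. Over the 47 members that did not pass, the 95% intervals of the difference reached from −0.23 for MRPL33 to 0.38 for MRPS17. These intervals do not show that the ligands act alike on those members.

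**Figure D5:**
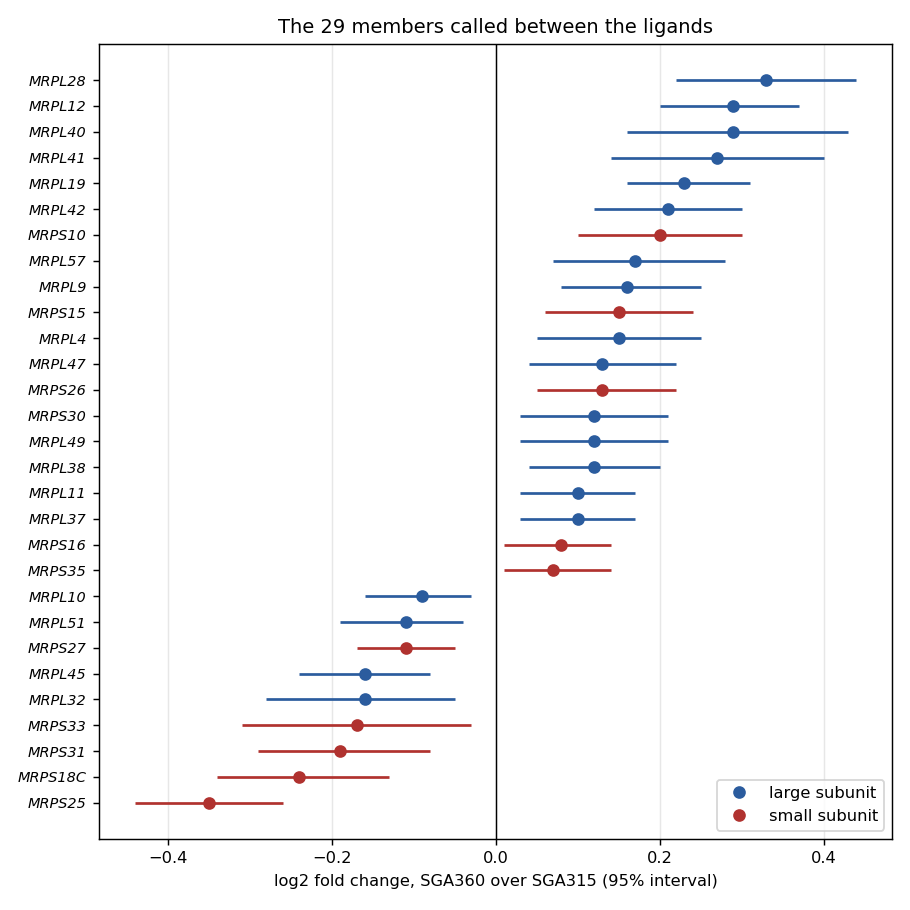
log2 fold change of SGA360 over SGA315, with 95% intervals, for the 29 members that passed the test. 20 lie above 0, led by MRPL28 at 0.33, and 9 lie below, down to MRPS25 at −0.35.

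Members with AAGATGGCG moved in both directions, and none with CCGGAAGT rose with either ligand. Rises were few among all 76 members, 13.2% with SGA360 and 14.5% with SGA315, while 57.9% and 67.1% fell. Counts this small cannot show that a motif goes with a direction. Of the 12 members with AAGATGGCG, 6 fell and 2 rose with SGA360, with a median log2 fold change of −0.12 against −0.16 for members without it. With SGA315, 8 fell and 1 rose, with medians of −0.18 with and −0.25 without it. Of the 11 with CCGGAAGT, 7 fell and none rose with SGA360 (medians −0.25 with, −0.16 without), and 8 fell and none rose with SGA315 (−0.26 with, −0.25 without). The highest values among these 11 were −0.01 with SGA360 and −0.04 with SGA315. The difference between members with and without a motif was not tested. MRPS10 rose by 0.36 ± 0.051 with SGA360, and MRPL50, with the same YY1 motif, fell by 0.40 ± 0.060. YY1 itself had a log2 fold change of −0.05 ± 0.035 with SGA360 and 0.02 ± 0.036 with SGA315, and neither passed the test. Among other regulators listed, MYC, a transcription factor of growth and ribosome genes, had 116, 116 and 113 CPM with SGA360, 129, 128 and 127 CPM with SGA315, and 211, 218 and 205 CPM with lovastatin alone. It was far lower in all 6 libraries with a ligand, by 0.87 ± 0.032 with SGA360 and by 0.72 ± 0.032 with SGA315. Of the 8 regulators tested, 5 fell and none rose with SGA360, and 4 fell and 1, ESRRA, rose with SGA315. With scaling to totals only, 3 fell and 1 rose with SGA360, and 2 fell and 2 rose with SGA315. On that scaling 21.4% of all genes fell and 44.0% rose with SGA360, and 24.7% fell and 47.2% rose with SGA315.

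20 members start within 1000 bases of a gene on the opposite strand, and such neighbours did not always move alike. The pair of MRPL46 and MRPS11, both members, is counted from each side. With SGA360 both genes were called in 11 of the 20 pairs, 7 in the same and 4 in opposite directions, and with SGA315 in 16, 11 in the same and 5 in opposite directions. Of all genes, 62.7% were called with SGA360 and 69.2% with SGA315. How many unrelated pairs would move alike was not worked out. MRPL49 fell by 0.46 ± 0.040 with SGA360, and its neighbour FAU, which encodes a cytosolic ribosomal protein, had a log2 fold change of −0.19. MRPL27 fell by 0.64 ± 0.046 while EME1, whose start lies 45 bases away, had a log2 fold change of 0.10. MRPL30 had 0.11 and its neighbour MITD1 0.88, also with SGA360. MRPL46 and MRPS11 start 320 bases apart and had −0.05 and −0.16 with SGA360 and 0.02 and −0.31 with SGA315. MRPS11 was spread between the libraries with lovastatin alone, at 30.2, 43.7 and 36.1 CPM. Its SGA360 value ran from −0.30 to −0.02 when 1 library was left out. The value of −0.02 (adjusted p = 0.788) came without lovastatin replicate 2. Its SGA315 value ran from −0.45 to −0.18 and passed the test in each of these fits. These pairs were chosen after their values were seen.

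The other genes of mitochondrial translation did not all move with the ribosomal proteins. Of 5 ribosomal proteins with other names, 4 fell and none rose with each ligand: CHCHD1 by 0.52 ± 0.066 with SGA360 and by 0.60 ± 0.068 with SGA315, and likewise AURKAIP1, PTCD3 and GADD45GIP1, while DAP3 had −0.02 ± 0.032 and −0.05 ± 0.032. Of 14 translation factors, 6 (42.9%) rose and 3 (21.4%) fell with SGA360 (median 0.08), and 6 (42.9%) rose and 4 (28.6%) fell with SGA315 (0.10). With scaling to totals only, 9 rose with each ligand, 3 fell with SGA360 (0.19) and 2 with SGA315 (0.22). Of all genes, 44.0% rose and 21.4% fell with SGA360 on that scaling (median 0.14), and 47.2% rose and 24.7% fell with SGA315 (0.16). The difference of the translation factors from the ribosomal proteins was not tested. MTIF2, the initiation factor that brings the first tRNA, had 68.3, 68.7 and 70.0 CPM with SGA360, 73.2, 76.4 and 78.4 CPM with SGA315, and 51.3, 51.5 and 53.1 CPM with lovastatin alone. It was higher in every library with a ligand, by 0.41 ± 0.044 with SGA360 and by 0.55 ± 0.044 with SGA315. OXA1L, which inserts the products into the inner membrane, rose by 0.25 ± 0.031 and by 0.41 ± 0.031, whereas TUFM, the elongation factor that carries aminoacyl-tRNA, fell by 0.31 ± 0.027 and by 0.35 ± 0.028.

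Of 28 genes of ribosome assembly and rRNA modification, 14 fell and 5 rose with SGA360 (median −0.11, and 0.01 with scaling to totals only), and 11 fell and 7 rose with SGA315 (−0.06, and 0.06). C1QBP, a matrix protein needed for ribosome formation, fell by 0.59 ± 0.036 with SGA360 and by 0.80 ± 0.038 with SGA315. Of 19 mitochondrial tRNA synthetase and amidotransferase genes, 9 fell and 5 rose with SGA360 (−0.03), and 9 fell and 7 rose with SGA315 (0.03). With scaling to totals only the balance turned, to 7 falls and 9 rises with SGA360 (0.09) and 8 falls and 10 rises with SGA315 (0.15). Of all genes, 44.0% rose and 21.4% fell with SGA360 on that scaling (0.14), and 47.2% rose and 24.7% fell with SGA315 (0.16). LARS2, the leucyl-tRNA synthetase, fell by 0.58 ± 0.048 and by 0.67 ± 0.050. Of 16 genes of mitochondrial transcription and RNA handling, 10 fell with each ligand, among them TFAM, which packages mitochondrial DNA, by 0.36 ± 0.029 and by 0.45 ± 0.029, and POLG2, a polymerase subunit, rose by 0.43 ± 0.092 and by 0.61 ± 0.091. The median of these 16 was −0.27 with SGA360 and −0.20 with SGA315, and −0.16 and −0.08 with scaling to totals only.

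The ribosomal RNAs of the mitochondrial ribosome were higher with both ligands, a list added after its values were known. MT-RNR1, the small subunit RNA, had 1100, 1130 and 1050 CPM with SGA360, 1010, 992 and 1100 CPM with SGA315, and 840, 894 and 872 CPM with lovastatin alone. No library with a ligand overlapped those without, and it rose by 0.33 ± 0.030 with SGA360 and by 0.25 ± 0.030 with SGA315 (SE, n = 3 each; Benjamini-Hochberg adjusted p = 1.62e-15 and 2.18e-11 in the edgeR quasi-likelihood test). MT-RNR2, the large subunit RNA, rose by 0.25 ± 0.032 and by 0.18 ± 0.032. Libraries were enriched for poly(A) RNA, and nuclear copies share sequence with these genes; the share of either in these values was not tested.

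The 2 groups of genes closest in function to the members lay on either side of them. Of 82 cytosolic ribosomal protein genes, 67 rose and 8 fell with SGA360 (median log2 fold change 0.14), and 71 rose and 7 fell with SGA315 (0.25). Their summed level was 10.7% higher with SGA360 and 17.5% higher with SGA315, and 19.9% and 27.8% higher with scaling to totals only (medians 0.25 and 0.37). A further list held 76 nuclear genes for subunits of oxidative phosphorylation, most of them in complexes with subunits that the mitochondrial ribosome makes. Of these 76 genes, 64 fell and 3 rose with SGA360 (−0.36), and 67 fell and 3 rose with SGA315 (−0.39). Under scaling to totals only, 56 of these fell and 5 rose with SGA360 (−0.25), and 55 fell and 6 rose with SGA315 (−0.27). Of all genes on TMM scaling, 31.4% rose and 31.4% fell with SGA360, and 36% rose and 33.2% fell with SGA315. With totals only, 44.0% of all genes rose and 21.4% fell with SGA360, and 47.2% rose and 24.7% fell with SGA315. Many cytosolic ribosomal protein genes have near-identical pseudogenes, between which reads may have been split. Between the ligands, 5 cytosolic ribosomal protein genes were higher and 48 lower with SGA360 (median −0.08), the opposite sign to the members' 0.04. The difference between these lists and the members was not tested.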

How the data were processed

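RNA was sequenced in 9 libraries of 3 groups. The authors deposited 1 table of unnormalised read counts, with a whole number for every RefSeq transcript in every library, per the file headers. The submitters' processing notes name TopHat2 2.0.13, HTSeq 0.5.4p3 and hg19 but give no roles. Filters, strand setting and annotation release are not given in the sources used. Of 65325 entries, 64346 were named from RefSeq (GRCh38.p14) and 545 from GENCODE. 434 without a name (0.255% of counts) stayed out. The entry with the highest total stood for each gene, and 43 genes with counts identical to another's were dropped. The test was that of edgeR 4.0.16 under R 4.3.3 (quasi-likelihood F test, TMM, filterByExpr with minimum count 10 and total 15, all 9 libraries, 1 coefficient per group), with Benjamini-Hochberg adjustment over 14678 genes. It was also run on simulated data in which few genes changed, which does not check the scaling for data like these. Alternatives were RLE, totals only, DESeq2 1.42.0, no filter, compared groups only, a replicate block, the lowest accession, a test against 1.5-fold and leaving out each library. Named members are the 5 largest non-overlapping rises and falls (at least 5 CPM) and the 3 smallest changes per comparison, the 3 highest and lowest levels, and genes fixed by name. Other genes were the 4 with the smallest p of a list, and a few were picked after their values were seen. Members and lists were chosen with earlier results of these data known. Depth was 12334083 to 16870148 counts per library. No coordinates of hg19 are used.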

Additional observations from a re-analysis of the deposited data

How the results depend on the processing

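Among the members called, the direction of 0 changed when any library was left out, and 43 of 54 calls held without each library for SGA360, 55 of 62 for SGA315 and 15 of 29 between the ligands. Over these fits 6 to 9 members rose with SGA360 and 6 to 10 with SGA315. Against a 1.5-fold change (glmTreat), 835 genes were called for SGA360, 1578 for SGA315 and 183 between the ligands, of which 0, 2 and 0 were members (MRPL12 and MRPL28, both lower with SGA315). With scaling to totals only, 17 members rose and 27 fell with SGA360, and 17 rose with SGA315. The sums then lay at −2.36% and −4.09% for all members, −2.79% and −5.51% for the large and −1.61% and −1.6% for the small subunit, and with RLE at −13.0%, −14.3% and −10.7% for SGA315. With DESeq2, 6 members rose with SGA360 and 5 with SGA315, and 5 were lower with SGA360 than with SGA315. In the last 150 bases of the promoter window 1.47% of members had the E box. The cause of these shifts was not tested. With totals only, the median of all genes also moved, from 0.02 to 0.14 with SGA360 and from 0.04 to 0.16 with SGA315. Same-numbered libraries of different groups correlated by 0.017 to 0.115, and differently numbered ones by −0.096 to 0.036. These correlations are weak, and the labels do not say whether replicate numbers pair the libraries. With the replicate block, 56, 64 and 33 members were called. Values near 0 changed sign. With SGA360, MRPL40 was 0.11 (totals only), 0.00 (compared groups only) and 0.01 (without SGA360 replicate 3), MRPL45 0.10 and MRPS33 0.11 (totals only), and without 1 library MRPL45 reached 0.01 and MRPS33 ran from −0.08 to 0.04, with 0.03 without SGA360 replicate 1. With SGA315, MRPS5 was 0.11 (totals only), and without 1 library it ran from −0.04 to 0.00 and MRPL46 was −0.01 and −0.03. Between the ligands, MRPL44 was −0.00 (totals only) and −0.02 to −0.01, MRPL58 −0.05 and −0.03, MRPS14 0.00 (RLE, no filter), 0.01 (DESeq2) and −0.04 to 0.07 without 1 library, and MRPS21 0.01 (RLE, DESeq2), 0.00 (no filter, block) and −0.04 to 0.06 without 1 library.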
